A study of Mus musculus with 2 samples.

Results

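The receptors and signaling proteins that carry interleukin-22 (IL-22) and gp130 cytokine signals to the transcription factor STAT3 were examined in gut epithelial cell preparations from wild-type (WT) and Lrrc19 knockout (KO) mice. The 10 genes were chosen by name for their place in this pathway, with no measured value in the rule. They were the IL-22 receptor chains Il22ra1 and Il10rb, the shared chain Il6st (gp130) and its partners Il6ra, Osmr and Lifr, the kinase Jak1, Stat3 itself, its inhibitor Socs3, and Extl3. All 10 genes were represented on the array, by 27 of its 45101 probe sets. All 10 were among the 12518 of 18193 genes whose brightest probe set reached the floor in at least 1 pool. The floor was an intensity of 127, the median over all probe sets except the array's own controls.

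IL-22 is made by lymphocytes of the gut wall and acts on epithelial cells, which carry its receptor, a pair of IL22RA1 and IL10RB. Cytokines of the IL-6 family signal through gp130, joined by IL6RA, OSMR or LIFR according to the ligand. Both routes activate Janus kinases, which phosphorylate STAT3. STAT3 then enters the nucleus and induces its target genes, among them Socs3, whose product shuts the receptors down again. In the gut, IL-22 and STAT3 are known for inducing antimicrobial lectins of the regenerating islet-derived (REG) family and for repair of the epithelium. EXTL3, a glycosyltransferase of heparan sulfate synthesis, has been described as a receptor for REG proteins.

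Each genotype was measured on 1 Affymetrix mouse array, hybridized with total RNA from a pool of 5 mice. Both pools held 2 males and 3 females on the C57BL/6 background, 6 weeks old and kept specific pathogen free, and they differed by the loss of the leucine-rich repeat receptor gene Lrrc19. Intestines had been shaken in EDTA to release the epithelium, and magnetic sorting was then used to remove macrophages, dendritic cells, B cells and cells carrying CD4 or CD8. The part of the intestine is not named in the labels, and the deleted exons are not named in the study's text. The brighter Lrrc19 probe set read 905 for WT and 212 for KO, and the other, which can match several transcripts, 391 and 20.9. Lrrc19 was thus lower in the pool labelled KO on both.

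With 1 array per genotype, precision is limited by the number of arrays. The spread between mice is not measured, no test was possible, and every difference compares these 2 pools with no replicate check. In pooled tissue, fewer cells of a type and less RNA per cell cannot be told apart. Differences are given as log2 of the KO intensity minus log2 of the WT intensity. A gene was called higher or lower past 2-fold, with 1.4-fold as a finer grade. For the 12518 genes, these differences had a robust SD of 0.27, in which noise of the arrays and differences of the mice are mixed. The scaling between the arrays is unknown, and all 18 probe sets of the hybridization spike-ins were higher on the KO array (median 0.50).

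None of the 10 genes passed 2-fold in either direction. Among all genes, 0.559% were at least 2-fold higher and 0.407% at least 2-fold lower in the KO pool. At 1.4-fold, 2 of the 10 genes were higher (Socs3 and Il6st) and none was lower, against 4.7% of all genes higher and 5.65% lower. These shares depend on the scaling. At 1.4-fold, 588 genes were higher and 707 lower as deposited, 382 and 1105 with both arrays set to the same median, and 990 and 447 with the arrays centred on 9 control genes. The corresponding numbers at 2-fold were 70 and 51, 53 and 76, and 93 and 34. Centred on the spike-ins, a choice made after the values were seen, 22 of 12996 genes were higher and 677 lower at 2-fold, and 72 and 6598 at 1.4-fold.

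**Figure D1:**
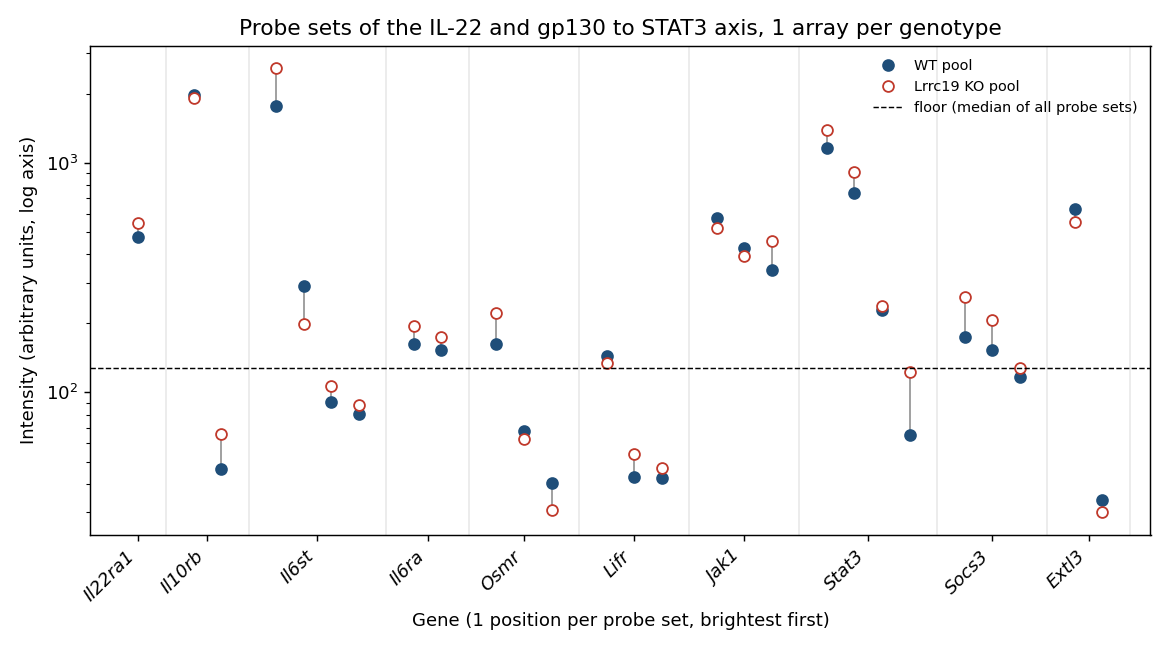
Intensity (arbitrary units, log axis) of the 27 probe sets of the 10 genes. Filled points are the WT array, open points the Lrrc19 KO array, and single arrays give no error. A dashed line marks the floor (127). At or above it in at least 1 pool were 17 probe sets, of which 11 were higher and 6 lower in the KO pool.

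The promoters of 2 genes on which the results turn are shown first. Socs3 had the largest log2 difference of the 10 genes, and Reg3b is a REG lectin that lay well above the floor in both pools. The letters TTCNNNGAA, the core of a STAT binding site, read the same on both strands and were searched in the RefSeq promoter windows (build GRCm38.p6), which run from 250 bases before the start of transcription to 50 bases after it. The 250 bases before the start are printed in the direction of transcription with the match in capitals. The stretch of Socs3 lies at chr11:117969367-117969616 on the minus strand, with the match beginning 154 bases before the start. That of Reg3b lies at chr6:78370635-78370884 on the plus strand, with the match beginning 129 bases before the start.
Socs3: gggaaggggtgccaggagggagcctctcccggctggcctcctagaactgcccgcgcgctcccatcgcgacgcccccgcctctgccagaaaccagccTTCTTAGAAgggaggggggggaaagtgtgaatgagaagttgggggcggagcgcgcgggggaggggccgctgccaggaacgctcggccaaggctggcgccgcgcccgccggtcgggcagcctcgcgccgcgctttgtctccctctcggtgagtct
Reg3b: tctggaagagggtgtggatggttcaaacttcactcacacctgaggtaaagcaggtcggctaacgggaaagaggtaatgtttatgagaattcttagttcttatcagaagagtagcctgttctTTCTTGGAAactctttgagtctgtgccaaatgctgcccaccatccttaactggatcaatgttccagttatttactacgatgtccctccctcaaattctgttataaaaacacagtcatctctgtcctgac
The Socs3 match reads TTCTTAGAA and the Reg3b match TTCTTGGAA. Of the 9 windows found for 8 of the 10 genes, that of Socs3 was the 1 with a match. Il10rb and Extl3 had no entry. Among 7 windows of the 7 REG genes, 2 held the letters (Reg3b and Reg3d), as did 5 of 37 windows of 29 genes known to respond to STAT3 or IL-22. The windows of Reg3g and Reg4, which also lay above the floor in both pools, held none. The letters occurred in 8.30% of all 32851 windows. A match is a description of these windows and not a site shown to be bound, and a window without one says nothing of the factor.

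The IL-22 receptor differed little between the pools. Il22ra1, the chain that restricts the IL-22 response to epithelial and a few other cell types, went from 474 in WT to 546 in KO (0.20). Il10rb, the chain shared with the IL-10 and interferon lambda receptors, gave 1965 and 1917 (-0.04) on its brighter probe set. Its other probe set did not reach the floor (46.2 and 66.0). Both differences lay within the robust SD of all genes. The sign of the difference of Il10rb was not stable, since it was 0.06 when the arrays were centred on control genes and 0.24 when its probe sets were averaged, while Il22ra1 was at -0.29 with the spike-ins.

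Il6st, the signal-transducing chain of the IL-6 family receptors, gave opposite readings on 2 of its 4 probe sets. The brightest went from 1772 in the WT pool to 2581 in the KO pool (0.54, 1.46-fold higher), and the next from 290 to 199 (-0.54, 1.46-fold lower). The remaining probe sets read 90.4 and 107, and 80.5 and 88.5, in WT and KO, all under the floor. The call of Il6st therefore rests on its brightest probe set. Averaged over all 4, the difference was 0.10. Among 4529 genes with at least 2 probe sets at or above the floor, 8 (0.177%) were past 1.4-fold in opposite directions, as Il6st was. The difference between its probe sets, 1.08 on the log2 scale, was reached or passed by 0.927% of these genes, whose median was 0.24. The transcripts that the separate probe sets match were not analysed here.

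The gp130 partners were near the floor. Il6ra, which binds IL-6, read 162 in WT and 194 in KO (0.26) on 1 probe set, and 153 and 174 (0.18) on the other. Osmr, the chain for oncostatin M, went from 162 to 223 (0.46, 1.38-fold higher), just short of the finer grade. Its other probe sets were under the floor and lower in the KO pool (68.1 and 62.9, and 40.3 and 30.6). Lifr, the chain for leukemia inhibitory factor, gave 145 and 134 (-0.11), with the others under the floor (42.9 and 53.8, and 42.5 and 47.1). Of these partners, Il6ra alone had several probe sets at or above the floor, and they differed from each other by 0.08.

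Jak1, a kinase that works at both the IL-22 and the gp130 receptors, was lower in the KO pool on 2 of its 3 probe sets and higher on the third. The intensities were 577 and 519 (-0.15), 424 and 391 (-0.12), and 341 and 454 (0.41) in WT and KO. None passed 1.4-fold. The 3 readings spanned 0.57, a range that 10.3% of the 4529 genes reached, and their average was 0.05, so that no direction can be given for Jak1.

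Stat3, the transcription factor on which both routes converge, was higher in the KO pool on each of the 3 probe sets at or above the floor, without passing 1.4-fold on any. It read 1154 in WT and 1382 in KO (0.26), 741 and 912 (0.30), and 229 and 237 (0.05). The last probe set did not reach the floor (65.2 and 123). A difference as high as that of Stat3 on its brightest probe set was seen in 17.1% of all genes. With the arrays centred on the spike-ins it was -0.24.

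Socs3, the feedback inhibitor that STAT3 induces and whose promoter is printed above, had the largest log2 difference of the 10 genes. On the brightest probe set the WT pool read 175 and the KO pool 260.1 (0.57, 1.49-fold higher). The second gave 153 and 206 (0.44). Names of both mark them as able to match several transcripts. The third, which is not so marked, stayed under the floor, at 116 and 127 (0.13). Of all genes, 2.98% were at least as high as Socs3, 3.51% as Il6st and 5.38% as Osmr. These were the 3 of the 10 genes beyond the robust SD. Socs3 differed by 0.08 to 0.66 over the settings in which it was measured, the lowest with the spike-ins. It fell under the floor when probe sets open to several transcripts were left out, and when the floor was taken at the 75th percentile. Extl3, the last of the 10, went from 628 to 552 (-0.19), and its other probe set lay under the floor at 34.0 and 30.0.

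**Figure D2:**
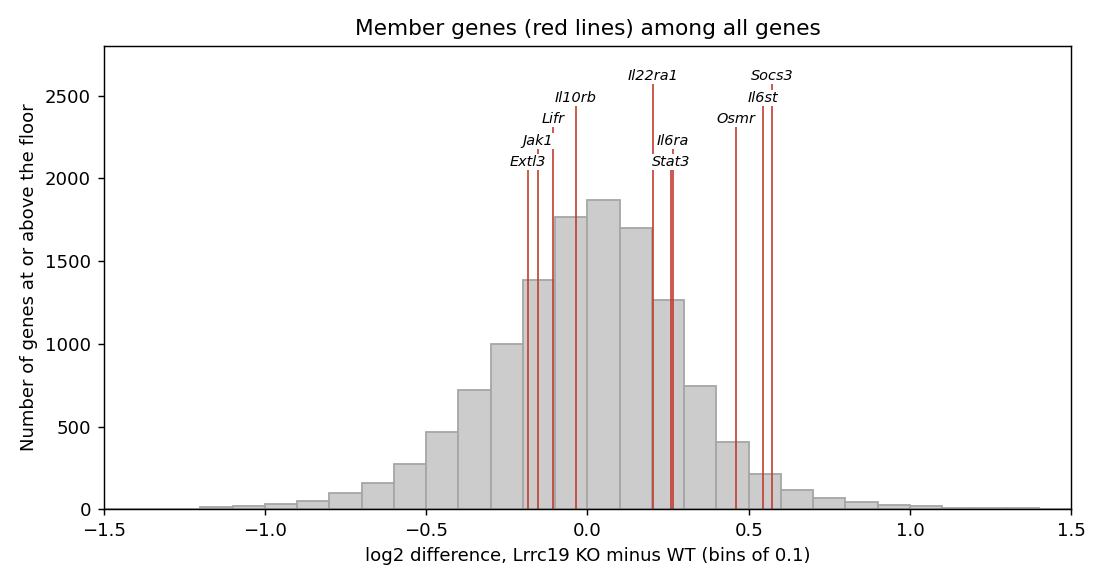
Number of genes in each bin of the log2 difference, Lrrc19 KO minus WT, for the 12518 genes at or above the floor (bars), with the 10 genes marked by red lines. The 35 genes beyond 1.5 in either direction are not drawn. Socs3 (0.57), Il6st (0.54) and Osmr (0.46) lie toward the upper edge, and the other 7 genes lie within the robust SD of 0.27.

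The median difference of the 10 genes was 0.23, and 6 of them were above 0. Over all genes the median was 0.01, and 52.1% were above 0. The median of the 10 genes was therefore 0.22 above that of all genes. A constant shift of 1 array moves both medians alike, and with the spike-ins they were -0.27 and -0.49. Order within the 10 genes, from Socs3 down to Extl3, is given by single arrays, and differences between neighbors in it cannot be set against a measured spread.

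**Figure D3:**
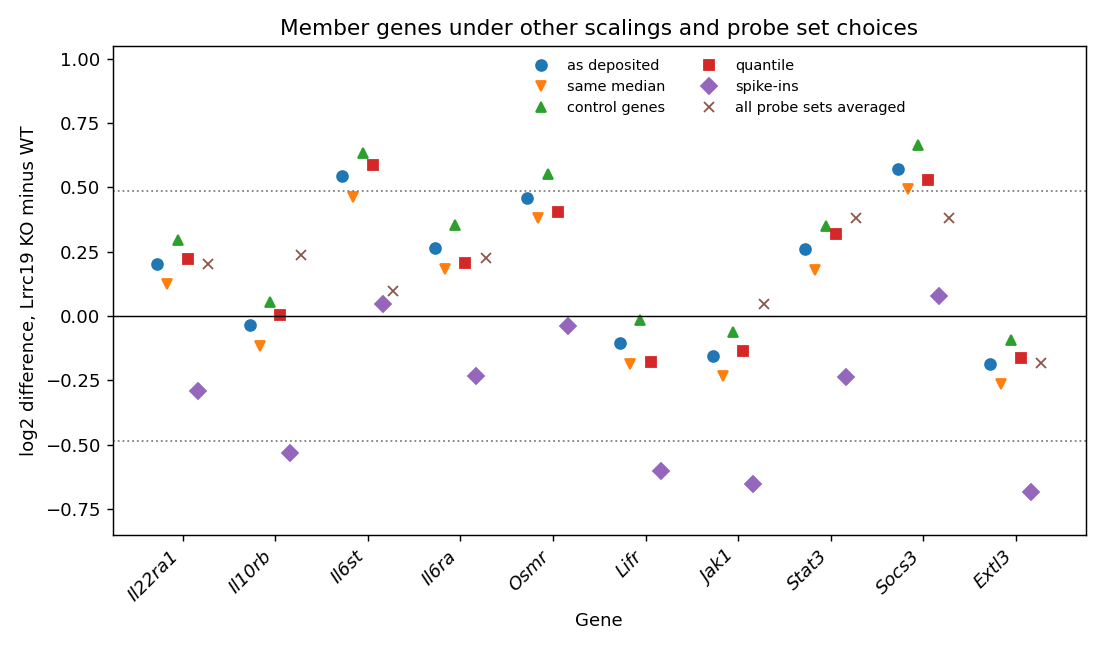
Log2 difference, Lrrc19 KO minus WT, of each of the 10 genes as deposited, with 4 other scalings of the arrays and with all probe sets of a gene averaged (averaging leaves Osmr and Lifr under the floor). Dotted lines mark 1.4-fold. Il6st and Socs3 stay above 0 in every setting drawn, with Il6st at 0.10 when averaged and 0.05 with the spike-ins, while Il22ra1, Il6ra, Osmr and Stat3 fall below 0 with the spike-ins.

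The remaining genes of the pathway were grouped by role. Of 15 cytokine ligands, 10 were on the array with a probe set of their own and 3 reached the floor, and none passed 1.4-fold (median 0.02). Osm (oncostatin M) read 141 in WT and 142 in KO, Ctf1 (cardiotrophin 1) 195 and 158, and Ebi3, a subunit of IL-27 and IL-35, 157 and 177. Il6 was far under the floor at 14.2 and 18.6. Lif, Il11, Il10, Il20, Il24 and Clcf1 were also under it in both pools, with intensities between 34.3 and 115. Il22 was not analysed here, because no probe set was assigned to it alone.

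Among other receptor chains, 4 of 7 reached the floor, with a median of 0.09. Il22ra2, a soluble protein that binds IL-22 and blocks it, was the 1 past 1.4-fold, beside 4.7% of all genes higher. Its only probe set went from 367 in the WT pool to 532 in the KO pool (0.53, 1.45-fold higher). The difference was 0.45 with both arrays set to the same median, short of 1.4-fold, and 0.04 with the spike-ins. The next largest difference was that of Il20rb, a chain of the IL-20 receptors (-0.15). Other kinases and STAT factors were at a median of 0.04 over 7 genes, none past 1.4-fold. Jak2, the kinase classically tied to gp130 and hormone receptors, differed most (1456 and 1941, 0.41), but its other probe set read 199 and 223. Stat5a was next (0.18).

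The feedback inhibitors, phosphatases and PIAS proteins were 15 genes, all at or above the floor, and none passed 1.4-fold. Their median was 0.10, and 13 of the 15 were above 0 as deposited, beside 52.1% of all genes. With the spike-ins the median was -0.40. Cish, a SOCS family member induced by STAT5, had the largest difference (0.37), and Ptpn2, a phosphatase that acts on JAK and STAT proteins, the next (0.33). The second probe set of Ptpn2 was at 539 in WT and 542 in KO.

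Genes known from other work to respond to STAT3 or IL-22 included several that were higher in the KO pool. Of 35 on the array, 28 reached the floor. At 2-fold, 4 were higher and none was lower, beside 0.559% and 0.407% of all genes. At 1.4-fold, 10 were higher and none lower, beside 4.7% and 5.65% of all genes. The median of the 28 was 0.19, 0.18 above that of all genes. Above 0 were 21 of the 28, beside 52.1% of all genes. Many of these genes are also known targets of NF-kB, hypoxia or growth factors. The REG genes, which IL-22 and STAT3 also induce, were kept out of this list and are given below. They were lower in the KO pool, with a median of -1.76 over the 4 at or above the floor. That none was lower therefore holds for this list without the REG genes.

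The 4 genes past 2-fold were the acute-phase proteins Saa1 and Saa2, Hif1a, which encodes the oxygen-regulated transcription factor subunit, and Nfkbiz, a nuclear regulator of NF-kB target genes. Saa2 went from 733 in the WT pool to 2154 in the KO pool (1.56), and Saa1 from 5585 to 11265 (1.01), with a further Saa1 probe set at 4931 and 11629. The chosen probe sets of both Saa genes can match several transcripts, and these near-identical paralogs may not be separable. Hif1a read 984 and 2096 (1.09), and its other probe sets at or above the floor, 460.4 and 919, and 265 and 593, were higher by similar amounts. Nfkbiz went from 635 to 1326 (1.06), but less on its other probe sets (175 and 243, and 187 and 226).

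Past 1.4-fold were also Mcl1 and Pim1, which protect cells from death, the oxidase maturation factor Duoxa2, the transcription factors Fos and Bcl6, and the iron-scavenging antimicrobial protein Lcn2. Mcl1 read 3246 in WT and 5394 in KO (0.73), Fos 2410 and 3980 (0.72), and Duoxa2 201 and 334 (0.73). The other probe sets of Mcl1, all at or above the floor, were between 0.23 and 0.41, so that its call rests on 1 probe set. Lcn2 was under the floor in the WT pool (113) and at 183 in the KO pool, which makes it at least 1.44-fold higher. Pim1 read 384 and 587 (0.61) on its brightest probe set, while another read 324 and 345. The largest difference the other way was that of Birc5, a survival and mitosis protein (-0.41). Socs3, the target that is a member of the axis, thus lay at 0.57 on the log2 scale, beside targets that ranged from -0.41 to 1.56.

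The measured REG genes were lower in the KO pool, in the direction opposite to Socs3. The study chose REG genes on these same arrays, so their direction here is not independent evidence. The paper also reported lower Reg3a, Reg3b, Reg3g and Reg4 by qRT-PCR, immunoblot and immunostaining, which were not analysed here. Its figure legend gives colon tissues for the qRT-PCR and immunoblot, whereas the part of the intestine on these arrays is not named. Reg3g, an antibacterial lectin, went from 4707 in the WT pool to 1000.4 in the KO pool (-2.23), and Reg4 from 1364 to 292 (-2.22). Reg3b, whose promoter is printed beside that of Socs3, went from 9099 to 4861 (-0.90, 1.87-fold lower). A second Reg3b probe set, which can match several transcripts, went from 7336 to 1518 (-2.27, 4.83-fold lower), so the readings of Reg3b differ in size but not in direction. Reg3a read 160 and 65.1, the latter under the floor, which makes it at least 1.25-fold lower. Reg1, Reg2 and Reg3d were under the floor in both pools. The median of the 4 measured genes was -1.76, or -1.56 with the KO value of Reg3a set to the floor.

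Extl3 was set beside the other exostosin and heparan sulfate genes. Of 17 on the array, 15 reached the floor and none passed 1.4-fold, with a median of 0.03 and a range from -0.21 to 0.34. Hs6st1, which adds sulfate to heparan chains, differed most (0.34), followed by the xylose kinase Fam20b (-0.21). Hs6st2 was under the floor in the WT pool (122 and 145) and at least 1.14-fold higher. Extl3 at -0.19 lay inside the range of the list.

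**Figure D4:**
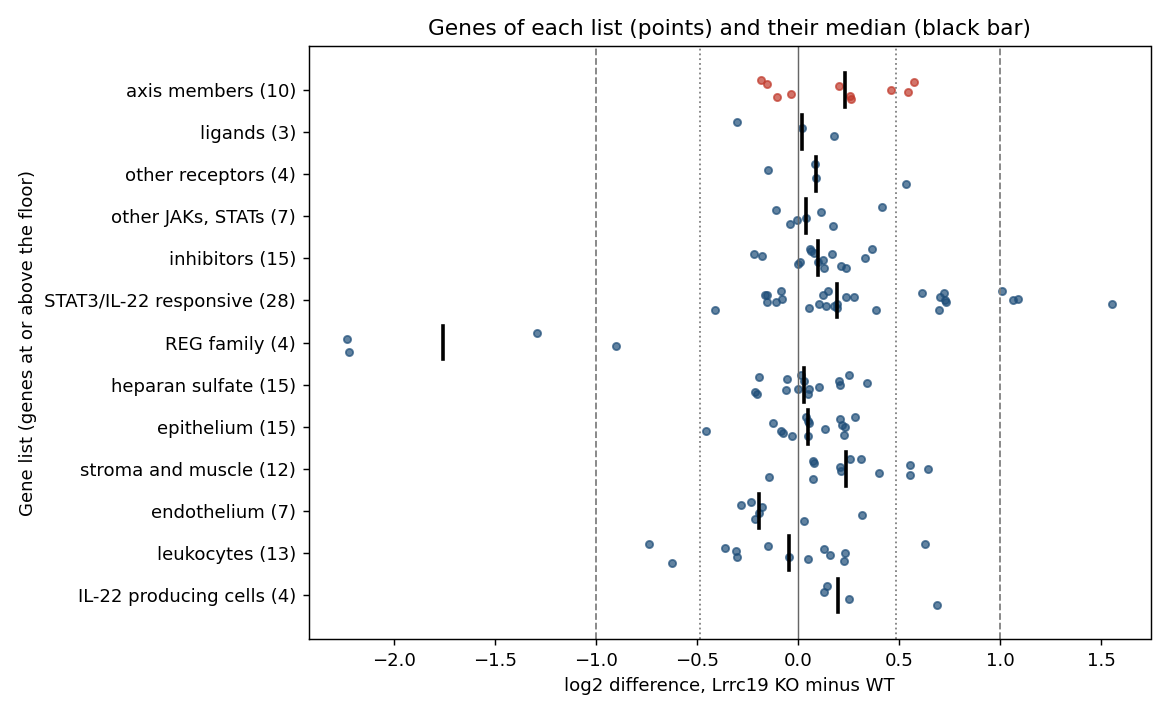
Log2 difference, Lrrc19 KO minus WT, of each gene at or above the floor (points) in the axis, the 7 pathway lists and 5 marker lists, with the median of each list (black bar) and the number of genes in brackets. Dashed lines mark 2-fold and dotted lines 1.4-fold. The REG genes lie to the left (median -1.76), 4 STAT3 or IL-22 responsive genes reach 2-fold to the right, and the medians of the other lists lie between -0.20 and 0.24.

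Markers of other cells were read beside these results. All 15 epithelial markers reached the floor, among them Epcam (12473 in WT and 12915 in KO) and Vil1 (5569 and 5762). Their median was 0.05, none passed 1.4-fold on its brightest probe set, and their summed intensity was 129242 and 134689. The largest differences on the brightest probe sets were those of Cdx1 (-0.46) and Cdh1 (0.28). A further Tspan8 probe set went from 318 in WT to 633 in KO (0.99). The brightest of Tspan8 was at -0.12, and the rest lay between -0.25 and 0.38. All 12 fibroblast and smooth muscle markers also reached the floor, so the preparations were not epithelium alone. Of the 12, 11 were above 0 and 3 at least 1.4-fold higher, beside 52.1% and 4.7% of all genes. Their median was 0.24 (-0.26 with the spike-ins), close to that of the 10 axis genes. Des went from 4206 to 6581 (131 and 120.2 on its other probe set) and Myh11 from 5685 to 8349, Acta2 read 12549 and 14996, Col1a1 668 and 703, and the summed intensity of the list was 67768 and 84405. These cells also use gp130 cytokines, and the part of the marker genes in the values of Il6st, Osmr and Socs3 was not tested.

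Leukocyte markers were still measured after the depletion, with 13 of 16 at or above the floor, a median of -0.04 and a summed intensity of 7829 in WT and 6864 in KO. Of these, 6 were above 0, beside 52.1% of all genes. At least 1.4-fold lower were 2, Adgre1 (606 and 363) and Cd3g (264 and 171), beside 5.65% of all genes. Ptprc read 982 and 953, and Cd3e 202 and 220.4. Ms4a1 was the 1 counted at least 1.4-fold higher, beside 4.7% of all genes. It was under the floor in the WT pool (108 and 166), which makes it at least 1.30-fold higher. Of 9 endothelial markers, 7 reached the floor with a median of -0.20, and 5 of the 7 were below 0 (52.1% of all genes were above 0). Emcn differed most (158 and 197, 0.32), then Cdh5 (271 and 230.3, -0.24), while Pecam1 gave 152 and 155. Tek went from 141 to 116, the latter under the floor, which makes it at least 1.11-fold lower. For lymphocytes that make IL-22, 4 of 6 genes reached the floor, with a median of 0.20. Il1r1, which fibroblasts also express, differed most (363 and 585, 0.69). Ahr read 438 and 483 (0.14), and Ccr6, under the floor in the WT pool, 115 and 138 (at least 1.08-fold higher). Il7r and Ncr1 were under the floor in both pools. The part of these lists in the values of the axis was not tested.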

How the data were processed

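RNA of 1 WT and 1 Lrrc19 KO pool had been hybridized to 1 array each. The deposited values were linear intensities between 1 and 25842 (median 124 for WT and 131 for KO). RMA is named in the submitters' processing notes without a version. It usually yields log2 values of equal distribution, which these were not, and any scaling that the authors applied between the arrays is not stated. Precision is limited by the number of arrays.

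Intensities under 1 were raised to 1 before log2 was taken. Of 45101 probe sets, 64 were array controls, 34945 carried 1 gene, 932 several and 9160 were unnamed here. Symbols of 34741 were updated by gene ID with the RefSeq table of GRCm38.p6. A gene was represented by its probe set with the highest mean log2 intensity. The mean of linear intensities was computed first and replaced after its counts had been seen (71 and 54 genes past 2-fold against 70 and 51), which changed no value of a named gene or list. Promoter windows came from RefSeq (GRCm38.p6). No test was run, and the description of list counts and medians takes the place of one.

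The 14 lists, the members among them (192 entries, 176 on the array), were chosen with earlier results of these data known. Named were all members, and from each pathway list the genes past 2-fold, the 2 with the largest differences at or above the floor, ligands and REG genes. From marker lists, the 2 with the largest differences and defining markers were named, and Cdh5 and Ahr were added where a gene of the rule was under the floor in 1 pool. Fam20b, Tspan8, and genes between 1.4-fold and 2-fold, were named beyond this rule, after their values were seen. With 2 arrays, no gene could be named as most like a member. The 8 alternatives planned and 2 added after seeing the data (spike-in centring, linear mean) concern scaling, probe sets and floor. Scripts were tested on simulated data. Python 3.11.15, numpy 2.4.6, pandas 2.3.3 and matplotlib 3.10.9 were used.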

Additional observations from a re-analysis of the deposited data

How the results depend on the processing

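None of the 10 axis genes passed 2-fold under any of the 10 alternatives. The number past 1.4-fold was 2 as deposited. With the arrays centred on control genes it was 3, all higher, where Osmr passed as well (0.55), beside 990 of all 12581 genes higher. With both arrays set to the same median it was 1, also higher, beside 382 of all 12523 genes. It was 1 without probe sets that can match several transcripts, 1 with a floor taken at the 75th percentile and 0 with all probe sets of a gene averaged. With the spike-ins it was 4 (Il10rb, Lifr, Jak1 and Extl3), all lower, beside 6598 of all 12996 genes lower. The 4 STAT3 or IL-22 responsive genes at least 2-fold higher became 2 with the same median, beside 53 of all 12523 genes, and 2 with averaging. With the spike-ins they became 1, beside 22 of all 12996 genes. The 10 at least 1.4-fold higher became 4 with the spike-ins, beside 72 of all 12996 genes. Centring on the spike-ins moved the median of all genes from 0.01 to -0.49, and the medians then were -0.27 for the axis, -0.48 for ligands, -0.41 for other receptors, -0.46 for other kinases and STAT factors, -0.40 for inhibitors, -0.30 for responsive genes, -0.47 for heparan sulfate genes and -2.26 for REG genes. The REG median was also -2.22 with the higher floor and -0.90 with no floor, where other numbers of genes enter. The median of the axis ranged from -0.27 to 0.32 over the alternatives.

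Of 93 recomputed differences of axis genes, 8 changed sign. These were Il22ra1, Il6ra, Osmr and Stat3 with the spike-ins, Jak1 with averaging, and Il10rb with averaging, control genes and quantile normalization. Of 383 differences and medians in all, 35 changed sign, none of which had passed 1.4-fold as deposited. The cause was not tested. The scaling between the arrays is unknown, and several readings (Il6ra, Osmr, Lifr, Socs3) lay near the floor. No paired analysis was possible because each genotype had 1 array.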
